A study of Mus musculus with 6 samples.

Results

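NRF2 (gene symbol Nfe2l2) is a transcription factor, KEAP1 (Keap1) is the adaptor that marks it for degradation, and Hmox1, Nqo1, Gclc, Gclm, Slc7a11, Txnrd1, Srxn1 and Gsr are 8 widely used antioxidant targets of NRF2. These 10 genes were taken by symbol from the 21878 genes of the deposited table, and all 10 were found and passed the filter on low values. RNA was measured in 6 input libraries, made from fragmented RNA kept back before the immunoprecipitation of an m6A experiment. The cells were HT22, an immortalized mouse hippocampal neuronal line, and the labels name no transgene in either group. The control group had 3 libraries, and the Al group had 3 libraries of cells given 120 µM aluminum maltolate, a soluble complex of aluminum and maltol, for the 24 h that the study's methods state. The sample labels carry the letters C and M alone, and the letters were read as control and Al because the study's own result tables name the same columns both M and Al. The study's methods list a medium control and a maltol control, and which of them gave these libraries was not stated in the sources used here. The libraries were described as triplicate biological replicates, and P values here measure the spread between these 6 libraries.

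Under resting conditions KEAP1, as the substrate adaptor of a CUL3 and RBX1 ubiquitin ligase, keeps NRF2 protein short-lived. Oxidants and electrophiles modify KEAP1, NRF2 then accumulates in the nucleus, pairs with a small MAF protein and binds the antioxidant response element upstream of its targets, where BACH1 can sit in its place as a repressor. The control is therefore mainly on the protein, and mRNA levels of Nfe2l2 and Keap1 do not report it. The targets fall into heme and quinone metabolism (Hmox1, Nqo1), the thioredoxin and sulfiredoxin arm (Txnrd1, Srxn1) and the making and recycling of glutathione (Slc7a11, Gclc, Gclm, Gsr).

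The antioxidant response element has the core TGACNNNGC, where N is any base. RefSeq promoter windows on GRCm38.p6, from 250 bases before to 50 bases after a start site, were matched by symbol for 7 of the 10 genes, and they are shown because this core is the link between NRF2 and its targets. Gclc, Gsr and Hmox1 were not matched. The core was searched on both strands, and 4 of the 7 genes held it in a window. The stretches below read 5′ to 3′ on the strand of the gene, with the core in capitals; in Srxn1, Gclm and Txnrd1 the core lies on the opposite strand, so its letters appear as the reverse complement.
Nfe2l2 (chr2:75704885-75704913, core from base -240 relative to the start site): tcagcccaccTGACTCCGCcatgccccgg
Gclm (chr3:122245413-122245441, core from base -134): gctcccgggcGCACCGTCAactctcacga
Txnrd1 (chr10:82859104-82859132, core from base -92 of 1 of its start sites): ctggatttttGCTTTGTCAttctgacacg
Srxn1 (chr2:152105542-152105570, core from base 29, past the start site): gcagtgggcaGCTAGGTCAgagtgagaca
The same core was present in 12.4% of all 32851 promoter windows and in at least 1 window of 14.0% of all genes. A match describes the letters and is not evidence of a bound site, and the windows of Keap1, Nqo1 and Slc7a11 lacked these letters within the span searched.

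Recovered from the steps of the FPKM values, the control libraries held 38059492, 43422481 and 44556768 reads, against 26670978, 21857904 and 21125631 for Al. Each of the 10 genes rested on at least 321 reads in every library, with the fewest for Slc7a11 in the Al libraries. FPKM was divided by a size factor per library (the median ratio over genes), and the result is called scaled FPKM. A gene was called a DEG when its unadjusted P from limma was under 0.05 and its log2 fold change was beyond 0.58 in either direction. The check of the labelled cell type used 7 neuronal markers: Map2, Rbfox3, Snap25 and Nefl had at most 4 reads in any library, Syt1 had at most 21, and Tubb3 and Eno2 were low at mean scaled FPKM of 4.49 and 2.44 in the control group. The defining neuronal markers were thus largely absent, while the 3 fibroblast markers summed to between 646 and 1049 scaled FPKM in control and between 1304 and 2067 in Al libraries. Col1a1 carried this sum and rose by a log2 fold change of 0.92 in scaled FPKM. On the deposited FPKM its means were closer, at 990 ± 233 in control and 1327 ± 299 in Al libraries (SD, n = 3 per group). The other markers, Pdgfra and Dcn, fell by 1.22 and 1.64 on the log2 scale in scaled FPKM. The summed neuronal markers spanned 6.33 to 7.91 in control and 4.60 to 7.67 in Al libraries. The astrocyte, microglial and oligodendrocyte lists each summed to at most 1.67 scaled FPKM. Their part in the results was not tested, and in bulk RNA a change in the mix of cells and a change in RNA per cell cannot be told apart.

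Nfe2l2 mRNA was higher in the Al group in scaled FPKM, a call that held under 3 of 7 library scalings and turned to -0.13 with TPM. Nfe2l2 lies at chr2:75675513-75704641 on the minus strand of GRCm38. Scaled FPKM stood at 34.7, 31.7 and 37.8 in control libraries and at 60.9, 47.9 and 56.0 under Al. The lowest Al library stood above the highest control library. The group means were 34.7 ± 3.04 and 54.9 ± 6.58 (SD, n = 3 per group). The log2 fold change came to 0.66 (SE 0.12, 95% confidence interval 0.39 to 0.93, limma adjusted P = 0.00146), or 1.58-fold.

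Keap1, at chr9:21229730-21239361, had scaled FPKM of 15.6, 17.0 and 17.2 in control and 20.7, 20.5 and 23.7 in Al libraries. The groups did not overlap here either, but the log2 fold change of 0.38 (SE 0.10, limma adjusted P = 0.0105) was under the limit of 0.58, so Keap1 was not a DEG. Keap1 shares a near-identical stretch with 1 other gene, and an antisense gene lies over it.

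**Figure D1:**
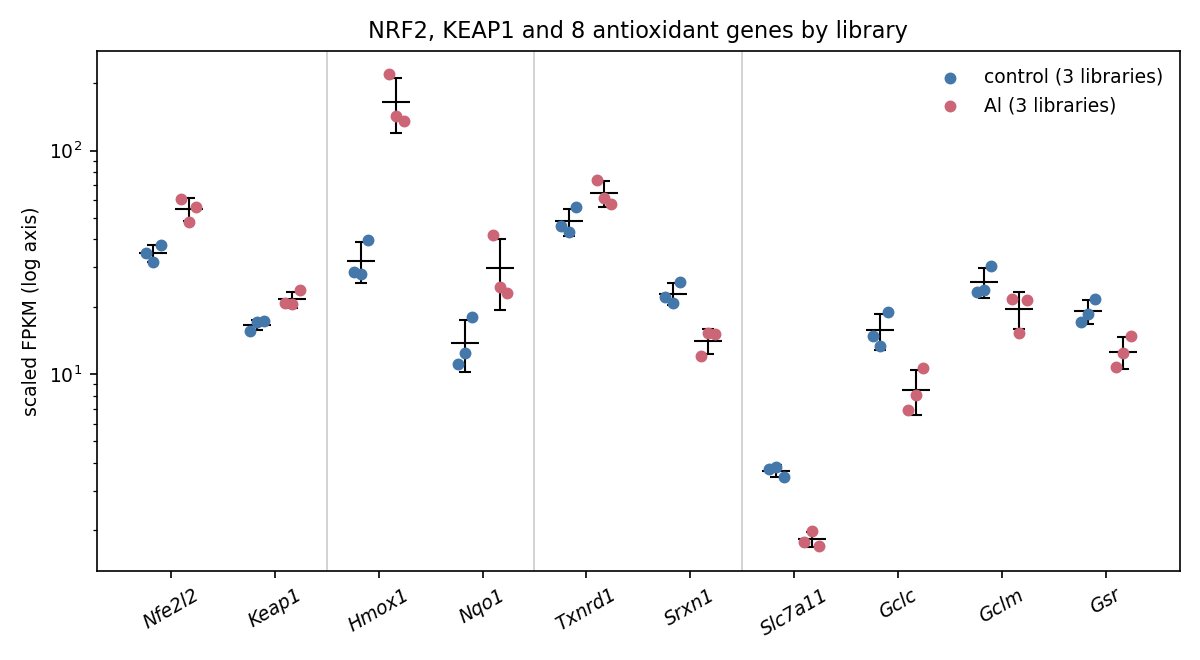
Scaled FPKM (log axis) of NRF2, KEAP1 and 8 antioxidant genes in each of 3 control (blue) and 3 Al (red) libraries; black bars give the mean and SD. Nfe2l2, Keap1, Hmox1, Nqo1 and Txnrd1 stand higher in all Al libraries than in any control library, and Srxn1, Slc7a11, Gclc, Gclm and Gsr stand lower, with Hmox1 the farthest apart (135 to 219 against 28.1 to 39.8); with TPM the log2 fold changes of Nfe2l2, Keap1 and Txnrd1 were below 0.

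The heme and quinone enzymes showed the steepest increases. Hmox1, heme oxygenase 1, which opens the heme ring and frees iron, carbon monoxide and biliverdin, lies at chr8:75093621-75100589. Its scaled FPKM was 28.5, 28.1 and 39.8 in control libraries and 219, 142 and 135 in Al libraries. All Al libraries were more than 3 times above the highest control library. The means of 32.1 ± 6.66 and 166 ± 46.4 (SD, n = 3 per group) gave a log2 fold change of 2.35 (SE 0.21, limma adjusted P = 3.46e-05), or 5.09-fold.

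Nqo1, the quinone reductase that is often read as a marker of NRF2 activity, lies at chr8:107388225-107403206. Its scaled FPKM was 11.1, 12.4 and 18.0 in control libraries and 41.9, 24.6 and 23.1 in Al libraries. The first Al library stood well above the other Al libraries, which it also did for Hmox1. Nqo1 rose by a log2 fold change of 1.08 (SE 0.25, limma adjusted P = 0.00494), and by 0.81 without that library. The increase was called under 5 of the 7 library scalings, and was 0.30 with TPM.

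In the thioredoxin arm the 2 genes lay on opposite sides in scaled FPKM, but Txnrd1 was below 0, as Srxn1 was, under 4 of the 7 scalings (-0.07 on the deposited FPKM, -0.37 with TPM, -0.13 with the sum without ribosomal protein genes and -0.01 after quantile normalization). Txnrd1, cytosolic thioredoxin reductase, at chr10:82833951-82897712, had scaled FPKM of 45.7, 43.2 and 55.6 in control and 73.9, 61.2 and 57.7 in Al libraries. The highest control library came close to the lowest Al library, and the log2 fold change of 0.41 (SE 0.14, limma adjusted P = 0.0253) was not called. The gene Eid3 overlaps Txnrd1 on the same strand. Srxn1, sulfiredoxin, which repairs over-oxidized peroxiredoxins, at chr2:152105516-152111376, had scaled FPKM of 22.1, 20.8 and 25.8 in control and 12.01, 15.3 and 15.1 in Al libraries. All Al libraries were lower, and Srxn1 fell by 0.69 on the log2 scale (SE 0.13, limma adjusted P = 0.00173). The decrease was 0.58, just short of the call, without the first Al library.

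All 4 glutathione genes were lower in every Al library than in any control library, and 3 of them were called lower. Over all genes, 33.1% lay wholly below the control libraries and 24.4% were called lower. Slc7a11, the light chain of the cystine importer that supplies cysteine for glutathione, at chr3:49892526-50443614, had scaled FPKM of 3.78, 3.86 and 3.45 in control and 1.78, 1.99 and 1.71 in Al libraries. Its libraries lay closer together within each group than those of the other glutathione genes, and it fell by 0.98 on the log2 scale (SE 0.15, limma adjusted P = 0.000561), which is 1.97-fold. Slc7a11 shares near-identical stretches with 9 other genes, so part of its reads may have been placed elsewhere. Gclc, the catalytic subunit of the ligase that makes the first step of glutathione synthesis, at chr9:77754535-77794485, had scaled FPKM of 14.9, 13.3 and 19.0 in control and 6.88, 8.02 and 10.7 in Al libraries. Gclc fell by 0.88 on the log2 scale (SE 0.19, limma adjusted P = 0.00312), or 1.85-fold.

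Gclm, the modifier subunit of the same ligase, at chr3:122245557-122270732, had scaled FPKM of 23.4, 23.7 and 30.4 in control and 21.8, 15.3 and 21.5 in Al libraries. The gap between the groups was narrow, and the log2 fold change of -0.41 (SE 0.16, 95% confidence interval -0.78 to -0.04, limma adjusted P = 0.0553) was not called. Gsr, glutathione reductase, which regenerates reduced glutathione with NADPH, at chr8:33652523-33698163, had scaled FPKM of 17.0, 18.5 and 21.7 in control and 10.7, 12.4 and 14.8 in Al libraries. Gsr fell by 0.60 on the log2 scale (SE 0.14, limma adjusted P = 0.00619), close to the limit. It was under the limit when any 1 of 3 libraries was left out: -0.48 without Al replicate 1, -0.58 without Al replicate 2 and -0.51 without control replicate 3. A pseudocount of 1 also brought it under the limit (-0.56).

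Of the 10 genes, 3 were called higher and 4 lower. Over all 12889 genes tested, 26.2% were called higher and 24.4% lower, and whether the shares among the 10 genes differed from these was not tested. All 3 Al libraries lay above all control libraries for 5 of the 10 genes and below them for the other 5, beside 35.1% and 33.1% of all genes. The median log2 fold change was -0.02 over the 10 genes and 0.03 over all genes tested. The exact permutation test gave its smallest possible P of 0.1 (two-sided, 3 against 3) for each of the 10 genes.

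Per length, the order of the genes changed between the groups. In control libraries Txnrd1 had the highest mean scaled FPKM (48.2), followed by Nfe2l2 (34.7), Hmox1 (32.1), Gclm (25.8), Srxn1 (22.9), Gsr (19.1), Keap1 (16.6), Gclc (15.7), Nqo1 (13.8) and Slc7a11 (3.70). Neighbours in that order overlapped in range except Txnrd1 with Nfe2l2 and Nqo1 with Slc7a11. In Al libraries Hmox1 (166) was first, above Txnrd1 (64.3), Nfe2l2 (54.9), Nqo1 (29.8), Keap1 (21.6), Gclm (19.5), Srxn1 (14.1), Gsr (12.6), Gclc (8.52) and Slc7a11 (1.83). The ranges of Txnrd1 and Nfe2l2, Nqo1 and Keap1, Keap1 and Gclm, and Srxn1 and Gsr overlapped in the Al libraries. Nqo1 thus moved from the ninth place to the fourth, and Slc7a11 was the lowest in both groups.

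Because the sum of FPKM differed between the groups, from 361083 to 385447 in control and from 428696 to 479075 in Al libraries, the comparison was repeated under 7 library scalings. The median log2 fold change of all genes was 0.03 in the scaled FPKM above, and -0.43 with FPKM as deposited, -0.72 with TPM (each library set to the same sum) and -0.03 after quantile normalization. With FPKM as deposited, 2 of the 10 genes were called higher and 5 lower (14.0% and 42.0% of all genes). With TPM the counts were 1 and 5 (9.30% and 53.1% of all genes), and after quantile normalization 2 and 4 (22.2% and 24.2%).

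Hmox1 was called higher under each of the 7 scalings, with log2 fold changes from 1.56 to 2.35. Gclc, Slc7a11, Srxn1 and Gsr were called lower under each of them, from -1.66 to -0.86 for Gclc, -1.73 to -0.66 for Slc7a11, -1.48 to -0.69 for Srxn1 and -1.38 to -0.60 for Gsr. These 5 genes therefore moved in the same direction whatever the scaling. Nqo1 was called higher under 5 scalings, and had log2 fold changes of 0.30 with TPM and 0.53 when libraries were set to the same sum without ribosomal protein genes. Gclm was called lower under 3 scalings, with log2 fold changes of -0.89 with FPKM as deposited and -1.19 with TPM.

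The change of Nfe2l2 itself depended on the scaling. As deposited, its FPKM was 40.9, 38.2 and 44.2 in control and 48.7, 38.9 and 52.0 in Al libraries, which overlap. Its log2 fold change came to 0.17 on the deposited FPKM (SE 0.13, limma adjusted P = 0.26), 0.33 after quantile normalization and -0.13 with TPM (limma adjusted P = 0.455), and Nfe2l2 was called higher under 3 of the 7 scalings. Keap1 and Txnrd1 were called under none, and their signs turned, to -0.41 and -0.37 with TPM. Relative to the median of all genes under the same scaling, Nfe2l2 was higher by 0.36 to 0.63, Keap1 by 0.29 to 0.38, Txnrd1 by 0.02 to 0.38, Nqo1 by 0.97 to 1.05 and Hmox1 by 1.92 to 2.32. On the same relative scale Slc7a11 stood at -1.02 to -0.64, Gclc at -0.95 to -0.84, Srxn1 at -0.78 to -0.72, Gsr at -0.66 to -0.63 and Gclm at -0.54 to -0.39.

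**Figure D2:**
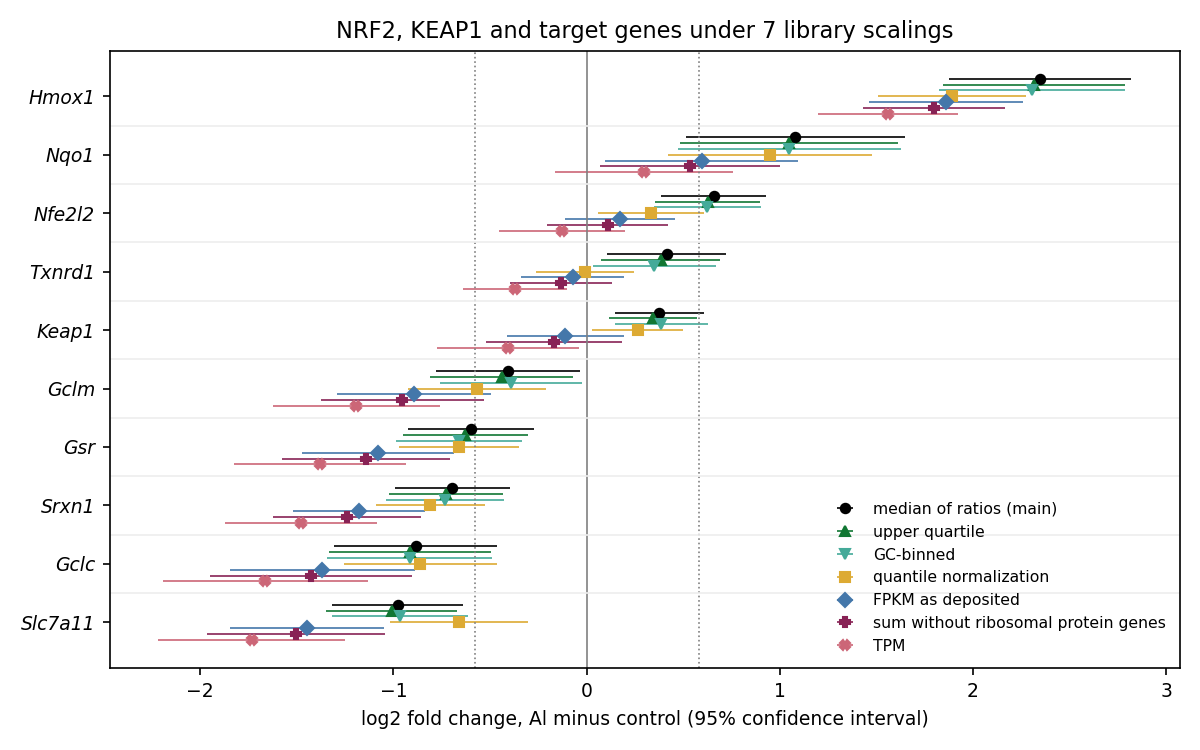
Log2 fold change, Al minus control, with its 95% confidence interval for each of the 10 genes under 7 library scalings; dotted lines mark the limit of 0.58 in either direction. Hmox1 lies at 1.56 or above and Gclc, Slc7a11, Srxn1 and Gsr stay to the left of the lower limit, while Nfe2l2 runs from -0.13 to 0.66 and Keap1 and Txnrd1 cross 0.

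A ratio of 2 genes within a library does not change with a size factor or a sum per library, though quantile normalization and GC-binned scaling can change it. The ratios were taken from the deposited FPKM. Whether the targets moved along with Nfe2l2 was asked by dividing each by Nfe2l2 in the same library. Hmox1 stood at 0.821, 0.886 and 1.05 times the FPKM of Nfe2l2 in control libraries and at 3.59, 2.97 and 2.42 times in Al libraries, so Hmox1 gained on Nfe2l2 in every Al library (log2 difference 1.69). Nqo1 stood at 0.322, 0.390 and 0.476 of Nfe2l2 in control and at 0.687, 0.513 and 0.412 in Al libraries, which overlap (log2 difference 0.43, and 0.23 without Al replicate 1). Nqo1 was the one target whose ratio to Nfe2l2 was not separated between the groups. Txnrd1, the most abundant of the 8 targets in control libraries, went from 1.32, 1.36 and 1.47 times Nfe2l2 to 1.21, 1.28 and 1.03 times (log2 difference -0.24, and -0.15 without Al replicate 3). Keap1 over Nfe2l2 had a log2 difference of -0.28, and of -0.17 without Al replicate 1.

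The other targets lost ground to Nfe2l2 in every Al library. The mean ratio to Nfe2l2 went from 0.742 ± 0.0651 to 0.354 ± 0.0324 for Gclm, from 0.658 ± 0.0223 to 0.262 ± 0.0613 for Srxn1 and from 0.549 ± 0.0506 to 0.233 ± 0.0492 for Gsr (SD, n = 3). For Gclc it went from 0.450 ± 0.0455 to 0.157 ± 0.0398, and for Slc7a11 from 0.107 ± 0.0153 to 0.0338 ± 0.0068. The log2 differences were -1.07 for Gclm, -1.36 for Srxn1, -1.26 for Gsr, -1.55 for Gclc and -1.68 for Slc7a11. The exact permutation P (two-sided, 3 against 3) was 0.2 for Nqo1 and 0.1, the smallest possible, for each of the other ratios. Of the 9 ratios 1 was above and 7 were below without overlap, beside 13.4% and 54.5% of all genes, whose median log2 difference to Nfe2l2 was -0.60. Limma on these ratios called 1 of the 9 higher and 5 lower, beside 10.8% and 49.1% of all genes.

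All 45 ratios between 2 of the 10 genes were then compared, a step added after the values were seen. The groups did not overlap in 33 of them (73.3%), beside 65.8% of the 76663153 pairs of genes above 0 in all libraries. The 10 pairs within Slc7a11, Gclc, Srxn1, Gsr and Gclm had log2 differences of at most 0.61, and 9 of these 10 overlapped between the groups. The pairs of 1 of these genes with Nfe2l2, Keap1, Txnrd1, Nqo1 or Hmox1 were separated in 25 of 25 cases, by 0.79 to 3.37. The 2 sides were set by the direction of the scaled FPKM, so this describes the sizes and is not a separate result. The widest was Hmox1 over Slc7a11, at 7.54, 7.28 and 11.5 in control libraries and 123, 71.5 and 79.1 in Al libraries.

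Within the glutamate-cysteine ligase the ratio of catalytic to modifier subunit RNA, Gclc over Gclm, was 0.635, 0.562 and 0.625 in control and 0.316, 0.524 and 0.495 in Al libraries. The Al libraries were lower in each case (log2 difference -0.48, exact permutation P = 0.1), and the first Al library was the lowest. Without it the log2 difference was -0.25.

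**Figure D3:**
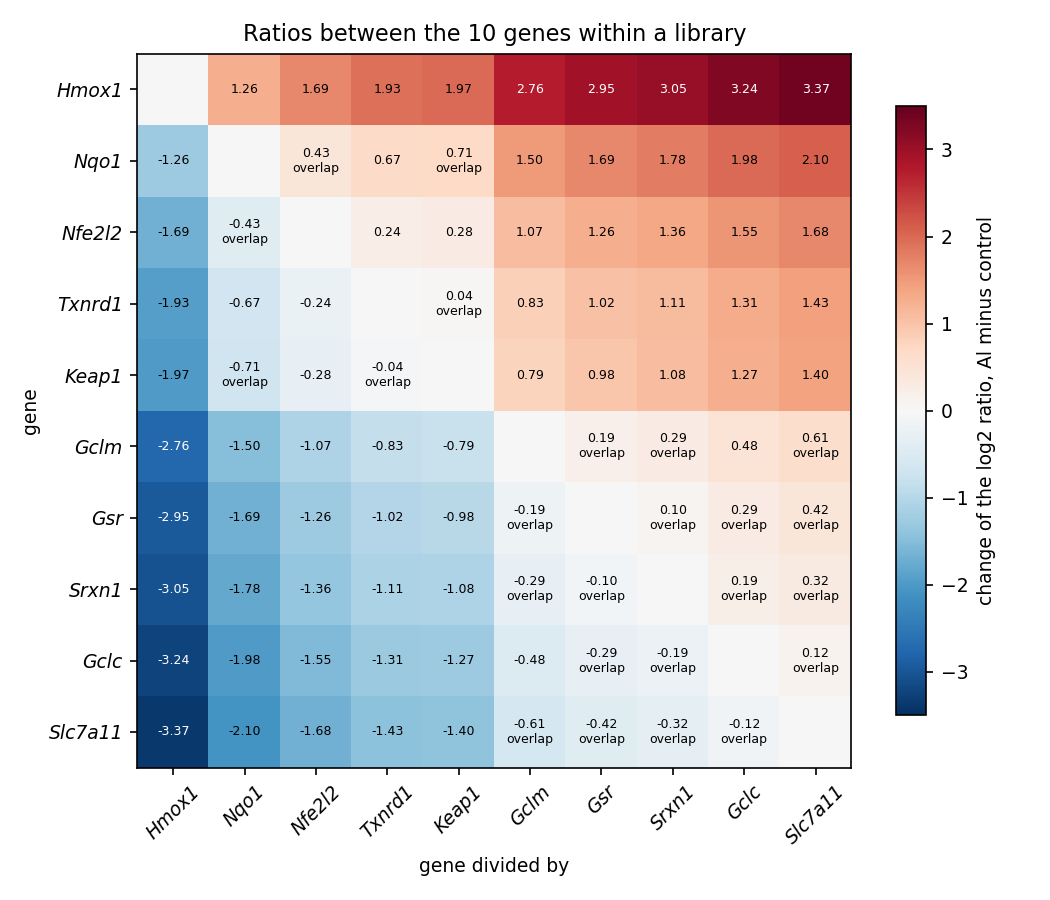
Change of the log2 ratio (Al minus control) of the gene in the row divided by the gene in the column, for all pairs of the 10 genes; cells marked overlap are pairs whose 3 control and 3 Al libraries overlap. The upper right block, genes higher in Al over genes lower in Al, runs from 0.79 to 3.37, and the lower right block, with differences of at most 0.61, is mostly marked as overlapping.

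Of 12 genes that act on NRF2 or share its DNA sites, 7 were called higher and 2 lower in scaled FPKM (26.2% and 24.4% of all genes), with a median log2 fold change of 0.69. This balance depended on the scaling: 3 were called higher and 4 lower with the deposited FPKM (14.0% and 42.0% of all genes), and 2 and 4 with TPM (9.30% and 53.1%), where the median was -0.09. All 3 small MAF genes, the partners NRF2 needs to bind DNA, rose. Maff had scaled FPKM of 4.07, 4.68 and 4.64 in control and 19.8, 28.9 and 31.0 in Al libraries, a log2 fold change of 2.52 (SE 0.17). Given the SEs this was similar in size to the increase of Hmox1. Mafk rose by 1.53 (SE 0.13) and Mafg by 0.80 (SE 0.15). Maff and Mafk were called higher under each of the 7 scalings, whereas Mafg was called under 4 and had 0.02 with TPM. Per library, Maff went from 0.117, 0.148 and 0.123 of the FPKM of Nfe2l2 in control to 0.325, 0.604 and 0.553 in Al libraries.

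The BACH proteins share the small MAF partners and occupy the same elements. Bach1, the repressor of Hmox1 that heme releases from DNA, had scaled FPKM of 8.21, 7.29 and 7.63 in control and 18.1, 18.1 and 19.2 in Al libraries. Bach1 rose by a log2 fold change of 1.25 (SE 0.10) and was called under 6 scalings, with 0.47 under TPM. Its ratio to Nfe2l2 was 0.237, 0.230 and 0.202 in control and 0.296, 0.378 and 0.344 in Al libraries, higher in each (log2 difference 0.60, exact permutation P = 0.1). Bach2, at 34 to 99 reads in the Al libraries, fell by 1.34 on the log2 scale (SE 0.32). Bach2 was called lower under each of the 7 scalings, from -1.95 to -1.34, but not with a pseudocount of 1 (-0.52). Of the related factors, Nfe2l3 had scaled FPKM of 0.578, 0.316 and 0.279 in control and 0.553, 1.86 and 1.34 in Al libraries, which overlap, and it was called higher at 1.37 (SE 0.43) on 30 to 84 reads. Nfe2l3 was called under 4 of the 7 scalings, and not on the deposited FPKM (0.96) or with TPM (0.70). Nfe2l1, the factor that drives proteasome genes, had a log2 fold change of -0.50 (SE 0.09), which was not called; it was called lower under 5 of the 7 scalings, down to -1.29 with TPM.

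Among the genes for NRF2 degradation, Cul3, the scaffold of the KEAP1 ligase, rose by 0.79 (SE 0.09), and Sqstm1, the autophagy receptor p62 that binds KEAP1, by 0.59 (SE 0.15). Neither was called with FPKM as deposited (0.31 and 0.11), and Sqstm1 was called in the scaled FPKM alone of the 7 scalings and stood at -0.37 after quantile normalization. Gsk3b, a kinase that marks NRF2 for the second, KEAP1-independent route of degradation, fell from 22.3, 20.1 and 20.5 to 10.4, 10.8 and 11.3 scaled FPKM, a log2 fold change of -0.94 (SE 0.10), and was called lower under each of the 7 scalings. Btrc, the adaptor of that second route, had -0.26 (SE 0.19), and Rbx1, the RING subunit, 0.48 (SE 0.16). Neither was called in scaled FPKM, but Btrc was called lower under 3 of the 7 scalings (-0.73 on the deposited FPKM), and its value ran from -0.36 to -0.09 with 1 replicate left out.

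Of 39 further genes known as NRF2 targets, 34 passed the filter, and 9 were called higher and 7 lower (26.2% and 24.4% of all genes). The counts were 4 and 12 with the deposited FPKM (14.0% and 42.0% of all genes), 3 and 16 with TPM (9.30% and 53.1%) and 1 and 8 after quantile normalization (22.2% and 24.2%). In scaled FPKM their median log2 fold change was 0.15, beside 0.03 for all genes. Gsta2, Gsta3, Gstm3, Gpx2 and Abcc2 were too low to test.

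Iron and heme genes went both ways. The ferritin chains that store iron rose: Ftl1 had scaled FPKM of 2007, 1900.2 and 2607 in control and 8492, 8350.1 and 5321 in Al libraries (log2 fold change 1.75, SE 0.42), and Fth1 rose by 1.46 (SE 0.37). After quantile normalization, which ties the most abundant genes to a fixed level, the values were 0.05 and -0.16. Ftl1 also has near-identical stretches in 7 other genes. The ratio of Fth1 to Ftl1 was 0.903, 0.926 and 0.794 in control and 0.767, 0.643 and 0.736 in Al libraries. Against this, Slc40a1, ferroportin, the iron exporter, fell from 8.73, 8.56 and 7.52 to 2.30, 0.888 and 2.45 scaled FPKM, a log2 fold change of -2.20 (SE 0.33). Abcb6, a porphyrin transporter, fell by 1.89 on the log2 scale (SE 0.31), and Fech, ferrochelatase, the last enzyme of heme synthesis, fell by 0.77 (SE 0.13), and shares near-identical stretches with 15 other genes. These 3 genes were called lower under each of the 7 scalings. Slc48a1, of the same group, was too (log2 fold change -0.62, SE 0.16), though its value ran from -0.81 to -0.49 with 1 replicate left out. Of the 7 iron and heme genes tested, 2 were called higher and 4 lower in scaled FPKM (26.2% and 24.4% of all genes).

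The 3 thioredoxin and peroxiredoxin genes had all Al libraries above all control libraries in scaled FPKM (35.1% of all genes). Txn1, the thioredoxin that TXNRD1 reduces, rose by 1.32 (SE 0.23), and Prdx1, the peroxiredoxin that sulfiredoxin repairs, by 0.88 (SE 0.20); Prdx6 had 0.58 (SE 0.16) and was just under the limit, with -0.21 under TPM. Txn1 was called under 5 of the 7 scalings, with 0.53 under TPM, and Prdx1 under 3, with 0.10 under TPM. Of the 6 enzymes that make NADPH or feed it, 2 were called higher and 1 lower in scaled FPKM (26.2% and 24.4% of all genes). Of the pentose phosphate route, Taldo1 rose by 0.86 (SE 0.15; 0.07 under TPM) and was called under 3 of the 7 scalings, and Tkt rose by 0.61 (SE 0.14; -0.18 under TPM) and was called under 1. G6pdx, the first enzyme of that route, had -0.21 (SE 0.13), which was not called, and was called lower under 3 of the 7 scalings, with -0.995 under TPM. Idh1, cytosolic isocitrate dehydrogenase, fell by 1.21 on the log2 scale (SE 0.15). Osgin1, a stress-induced growth inhibitor, had the largest increase of the 34 further targets tested, at 1.80 (SE 0.13). Given the SEs this was similar in size to the increase of Ftl1 (1.75, SE 0.42). Osgin1 went from 3.35, 3.46 and 2.81 to 12.5, 10.5 and 11.2 scaled FPKM, and was called under each of the 7 scalings.

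Of the 9 further glutathione genes tested, 1 was called higher and 1 lower in scaled FPKM (26.2% and 24.4% of all genes). The gene called higher, Gstp1, was called under 3 of the 7 scalings and had -0.07 with TPM. Under other scalings more were called lower: Gss and Abcc4 under 3 of the 7, Gstm1 under 4 and Abcc1 under TPM alone (-0.65). Mgst1, a membrane-bound glutathione transferase, fell by 1.13 on the log2 scale (SE 0.20). Of the 8 quinone and carbonyl enzymes, 1 was called in each direction in scaled FPKM (26.2% and 24.4% of all genes). Akr1b8 was called higher under 3 of the 7 scalings, Ptgr1 was called lower under 3, and Cbr1 and Cbr3 were called lower under 1 each. Ugdh, which makes the sugar donor for glucuronidation, fell from 83.0 ± 10.5 to 41.3 ± 3.17 scaled FPKM (SD, n = 3 per group). Mgst1, Idh1 and Ugdh were called lower under each of the 7 scalings.

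**Figure D4:**
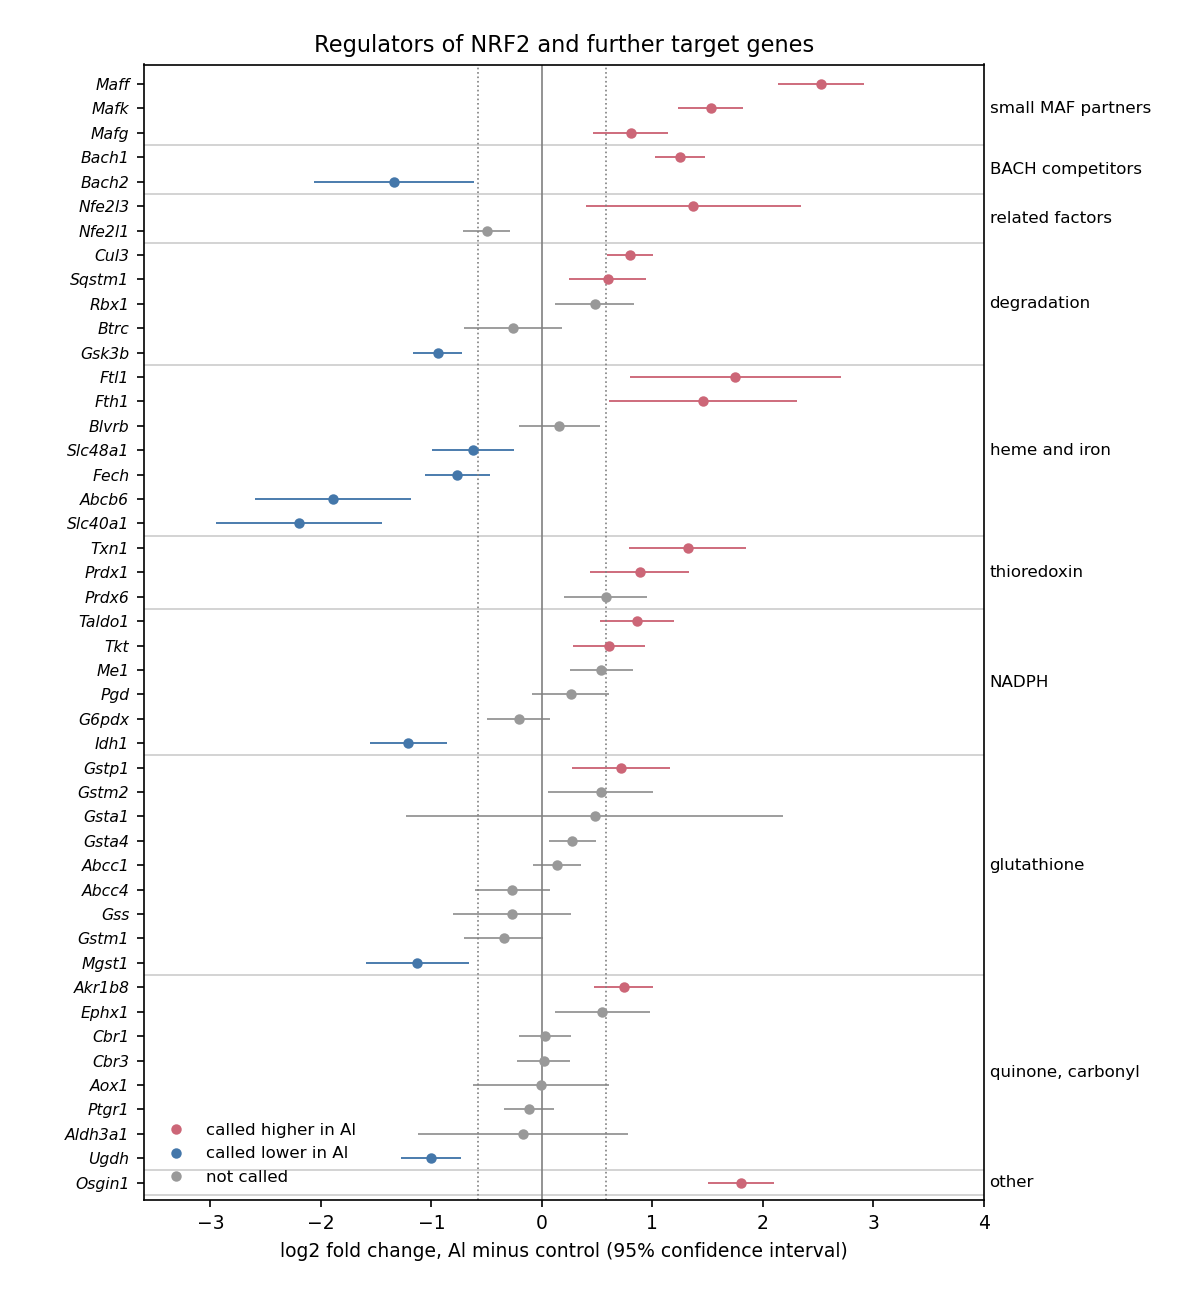
Log2 fold change (Al minus control, scaled FPKM) with its 95% confidence interval for 12 regulators and 34 further target genes, grouped by role; red marks genes called higher, blue called lower and grey not called. The small MAF genes, Bach1, Osgin1 and the ferritin genes lie to the right, and Bach2, Gsk3b, Slc40a1, Abcb6 and Idh1 to the left.

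The name NRF-2 is also used for GABP, a nuclear respiratory factor unrelated to Nfe2l2. Gabpa, its DNA-binding subunit, had a log2 fold change of 0.00 (SE 0.13) and Gabpb2 had -0.22 (SE 0.12). Gabpb2 was called lower under 3 of the 7 scalings, with -0.70 on the deposited FPKM, and Gabpa under TPM alone (-0.78). Gabpb1 rose by 0.81 (SE 0.15; 0.04 under TPM), and Nrf1, nuclear respiratory factor 1, had 0.15 (SE 0.18) and was called lower under TPM (-0.62).

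Over the 6 libraries, the profiles nearest to that of Nfe2l2 among 10348 genes were those of Zfp821, Zfp30 and Uhmk1, at Euclidean distances of 0.134, 0.150 and 0.168 in centred log2 scaled FPKM. No member of the NRF2 lists was among these 3. With so few places among 10348 genes, this cannot show whether the listed genes follow Nfe2l2.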

How the data were processed

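The data were 1 table of 6 input RNA-seq libraries of HT22 cells, 3 per group. The authors deposited FPKM per gene symbol, without coordinates. Per the study's methods, reads were trimmed with Trimmomatic, filtered with SortMeRNA and aligned with HISAT2 to GRCm38, whereas the submitters' processing notes name fastp, HISAT2, HTSeq and GRCm39. The annotation and the strand setting of the counting are not given in the sources used here, so overlapping and antisense genes could share reads. FPKM per length and depth does not remove differences in library composition.

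The steps of the FPKM values gave whole reads for 17675 of 17688 genes above 0 (tolerance 1e-07 of a read). Log2(FPKM divided by a size factor, plus 0.1) was tested with limma 3.58.1 (lmFit, eBayes with trend) in R 4.3.3 on the 12889 genes averaging 0.1 FPKM or more. The size factor was the median ratio over 10337 genes. A gene was called when its limma P was under 0.05, with an absolute log2 fold change above 0.58. Adjusted P values are Benjamini-Hochberg over all genes tested. The script was tested on simulated data. Ratios within a library used the exact two-sided permutation test (scipy 1.17.1). Alternatives were 6 other scalings, other pseudocounts and filters, limma without the trend, a replicate block, each replicate left out, adjusted P thresholds and voom on the recovered reads. The near-identical stretches were found with BLAST 2.17.0 (at least 95% identity over 150 bases). Gene positions came from an annotation of GRCm38.

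The 10 genes and all lists were chosen with earlier results of these data known. Named genes are the 10, all regulators and nuclear respiratory genes, the 6 largest increases and the 6 largest decreases among called further targets (mean FPKM of at least 1, no overlap between groups), and the 3 profiles nearest to Nfe2l2. Prdx6, Gss, Abcc4, Gstm1, Gstp1, Akr1b8, Ptgr1, Cbr1, Cbr3, Tkt, G6pdx, Abcc1, Slc48a1, Gsta4, Gstm2, Pgd, Me1, Aox1, Ephx1 and Blvrb were named after their values were seen. Numbers of control and Al replicates did not pair: correlations of their deviations were -0.03, -0.03 and -0.07. Replicates differed by more than sampling noise, so no library was counted as a copy of another.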

Additional observations from a re-analysis of the deposited data

How the results depend on the processing

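Library scaling was the choice that mattered most. Hmox1, Gclc, Slc7a11, Maff, Mafk, Bach2, Gsk3b, Osgin1, Slc40a1, Abcb6, Fech, Idh1, Mgst1 and Ugdh kept their direction and their call under the 6 other scalings and with each replicate left out. Over all genes, 3375 were called higher and 3143 lower. These counts were 1805 and 5417 with FPKM as deposited, 1199 and 6845 with TPM, and 1656 and 5673 with sums set equal without 85 ribosomal protein genes. Of the 10 genes, 1 was called higher with TPM and 1 with the sum without ribosomal protein genes. By adjusted P alone, 5 of the 10 were called higher and 4 lower, beside 4154 and 3855 of all 12889 genes tested. Of the regulators, those called higher numbered 3 (FPKM as deposited), 2 (TPM) and 3 (sum without ribosomal protein genes), those called lower 4 under each of these, and 1 was called lower with a pseudocount of 1 or a mean FPKM of at least 1. Of the further targets, 4, 3 and 4 were called higher and 12, 16 and 12 lower under the same scalings, and 1 was called higher after quantile normalization.

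Among the named genes, signs turned as follows. With FPKM as deposited, Keap1 had -0.11, Txnrd1 -0.072, Rbx1 -0.0079 and Nrf1 -0.33. With TPM, Nfe2l2 had -0.13, Keap1 -0.41, Txnrd1 -0.37, Rbx1 -0.31, Sqstm1 -0.19 and Nrf1 -0.62. Of the further targets not named by the rule, with TPM Gstp1 turned to -0.071, Akr1b8 to -0.046, Tkt to -0.18, Prdx6 to -0.21, Cbr1 to -0.75, Cbr3 to -0.77 and Abcc1 to -0.65, and Abcc4 turned to 0.054 after quantile normalization. Cbr1 and Cbr3 were also below 0 with FPKM as deposited (-0.46 and -0.47). Gsta4, Gstm2, Pgd, Me1, Aox1, Ephx1 and Blvrb, none of them called in scaled FPKM, had either sign over the 7 scalings, and Blvrb was called lower under 1. With the sum without ribosomal protein genes, Keap1 had -0.17, Txnrd1 -0.13, Rbx1 -0.069 and Nrf1 -0.39. After quantile normalization, Txnrd1 had -0.0085, Sqstm1 -0.37, Btrc 0.072, Fth1 -0.16 and Gabpa 0.16. Gabpa had 0.011 with GC-binned scaling. With replicates left out, the Gabpa log2 fold change, near 0 with all libraries, ranged from -0.11 to 0.060 and the Nrf1 log2 fold change from -0.028 to 0.29. The cause was not tested beyond the shift of all genes given above.

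With each replicate left out, the genes among the 10 called lower ranged from 2 to 4, and those called higher remained 3. Over all 12889 genes tested, 2974 to 3293 were called lower and 3191 to 3509 higher in these fits. The 2 arose without Al replicate 1, where Gsr (-0.48) and Srxn1 (-0.58) were lost. Limma on ratios to Nfe2l2 called 1 target higher (1 to 2 with a replicate left out, 2 without Al replicate 3, where Nqo1 had 0.60) and 5 lower (10.8% and 49.1% of all genes). Every ratio in that fit shares the same 6 Nfe2l2 values, and its calls are given as counts alone. Voom on the recovered reads called 3 of the 10 higher and 4 lower, beside 3407 and 3138 of all 12876 genes in that fit.

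The replicate numbers did not pair the samples. With the replicate block, 3352 genes were called higher and 3123 lower, 3 and 4 of the 10 genes, 7 and 2 of the regulators, 7 and 7 of the further targets, and 1 and 5 of the ratios to Nfe2l2; Ftl1 and Fth1 lost their call. The exact test of 3 against 3 libraries cannot go below 0.1. Bach2 and Nfe2l3 had under 100 reads in the Al libraries, and whether depth limited their results was not tested. Protein levels, NRF2 activity and time course were not measured in these files, and a maltol effect apart from aluminum cannot be told apart here.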

Other observations

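Within a group, the same library often stood out from gene to gene in scaled FPKM. Control replicate 3 had the highest scaled FPKM of the control libraries in 9 of the 10 genes, Slc7a11 being the exception. Al replicate 1 lay the farthest from the control mean in 7 of the 10 genes (Nfe2l2, Hmox1, Nqo1, Txnrd1, Gclc, Srxn1 and Gsr), whereas Al replicate 3 did so for Keap1 and Slc7a11 and Al replicate 2 for Gclm. Al replicate 1 was the highest Al library for Nfe2l2, Hmox1, Nqo1 and Txnrd1 and the lowest for Gclc, Srxn1 and Gsr. On the deposited FPKM, Al replicate 3 was the farthest for Nfe2l2. The shares over all genes were not taken. The pattern was noticed in the values and was not tested.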
